A study of Mus musculus with 1087 samples.

Results

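The cells compared here were 73 of the 1087 single cells of a study of the mouse aorta-gonad-mesonephros region: 46 cells collected at embryonic day 11 (E11) and 27 collected at E10. They were taken from the G2VInt gate by the authors' labels, as class HC1 and cluster 7 of the clustering made without CD27+ cells, and by the day in the sample name. No measured value was used to choose them beyond that clustering, which the authors made from the same transcriptomes. They were 46 of 130 G2VInt cells at E11 and 27 of 87 at E10.

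Cells of both days came from Gata2V/+ embryos, the offspring of C57BL/6HsdJOla wild-type mothers and Gata2V/V fathers, so every cell carried 1 Gata2 allele linked to the Venus reporter and there was no embryo without it. All are labelled Kit-high and of intermediate Venus (G2VInt), and as cells of the intra-aortic hematopoietic clusters. The dissected region included the trunk part of the vitelline and umbilical arteries, so a cell's vessel of origin is not known. Neither embryo nor litter nor sort is named in the labels, only 1 library number per cell. Each day was therefore 1 sample, cells were not treated as replicates, and no test was made between the days.

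In the mid-gestation embryo, endothelial cells of the aortic wall switch to a blood fate, round up and form clusters that bud into the vessel, and the first hematopoietic stem cells (HSCs) arise among them. Cells in this transition carry endothelial and hematopoietic transcripts side by side. Arterial identity, which depends on Notch signalling, precedes the switch, and the transcription factors Runx1 and Gata2 are needed for it.

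The E11 cells held 110427264 reads on genes, with a lowest, median and highest cell of 778712, 2425999 and 4517770 reads. The E10 cells held 58369345 reads, with 124620, 2191363 and 3001704. The median cell had reads on 10794 genes at E11 and 10873 at E10, and the median mitochondrial share was 2.20% and 1.77%. In the authors' other clustering, of all cells, 38 of the 46 E11 cells were again in cluster 7 and 6 were in cluster 8, whereas 11 of the 27 E10 cells were in cluster 7 and 16 in cluster 8. Values are therefore also given for the 38 and 11 cells that were in cluster 7 in both clusterings. Reads of Y-linked genes (at least 10) were found in 34 E11 cells and 3 E10 cells, and Xist reads in 9 and 23, so the E11 cells were mostly male and the E10 cells mostly female. The part of this in the differences below was not tested. Of the 351 measured X-linked genes, 6.84% were at least 2-fold higher at E11 and 3.7% lower, with a median log2 ratio of -0.03 relative to all genes, and 4 Y-linked genes were among the higher ones. Library numbers of the days do not overlap, so day and library number cannot be told apart. The E11 cells came from 2 blocks of 96 library numbers (31 and 15 cells) and the E10 cells from the lower 48 (11 cells) and upper 48 (16 cells) numbers of 1 block.

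The label of the cells was checked against marker genes. All 8 hematopoietic markers, such as Ptprc, Runx1 and Spi1, exceeded 10 CPM (reads per 1000000 on genes) on both days, with a summed level of 3292 CPM at E11 and 3516 CPM at E10. All 7 endothelial markers, such as Pecam1, Cdh5 and Tie1, did so too, at 2999 and 2253 CPM. The median cell of cluster 7 held 3121 CPM of the hematopoietic markers at E11 and 3635 CPM at E10, and 2826 and 2198 CPM of the endothelial ones. The median G2VInt cell of class EC (15 at E11 and 14 at E10) held 984 and 1179 CPM of the hematopoietic markers and 6258 and 6380 CPM of the endothelial ones. Cluster 7 thus carried both sets. Macrophage markers summed to 13.7 and 12.1 CPM, with C1qa at 0 on both days. Erythroid markers summed to 10.6 and 13.2 CPM, mast cell markers to 2.45 and 0.03 CPM, germ cell markers to 1.34 and 0 CPM, and neural markers to 0.11 and 0.03 CPM. Megakaryocyte markers summed to 175 CPM at E11 and 207 CPM at E10, with 2 of 5 over 10 CPM on each day. Epithelial markers summed to 233 and 156 CPM, almost all of it the keratin gene Krt18. Mesenchymal markers summed to 397 CPM at E11 and 168 CPM at E10, mostly the actin gene Acta2, and 1 E11 cell reached 3997 CPM.

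Expression was compared as the ratio of CPM, E11 over E10, after reads were summed over the cells of a day. A gene was called measured with at least 10 CPM on 1 day and a read in at least 20% of that day's cells, each thinned to 100000 reads; 9996 genes were. Of these, 769 (7.69%) were at least 2-fold higher at E11 and 248 (2.48%) at least 2-fold lower. At 1.5-fold, the limit used for gene lists below, 1691 genes (16.9%) were higher and 866 (8.66%) lower. In the cells of cluster 7 in both clusterings, 926 of 10068 genes (9.2%) were at least 2-fold higher and 393 (3.9%) lower, and 17.8% and 10.5% were so at 1.5-fold. Intervals of summed levels and ratios are exact Poisson 95% intervals. They cover counting error only, and copies made by PCR, which cannot be told from molecules here, make them too narrow. Over all 9996 genes the log2 ratio had a median of 0.02, and list medians are given relative to it. The gene lists were chosen with earlier results of these data known, so their counts and medians describe these cells and are no test. Because a gene that is high on 1 day only could pass the limit through that day, list medians are also given with the limit set on the mean of both days where they differ by more than 0.1.

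**Figure D1:**
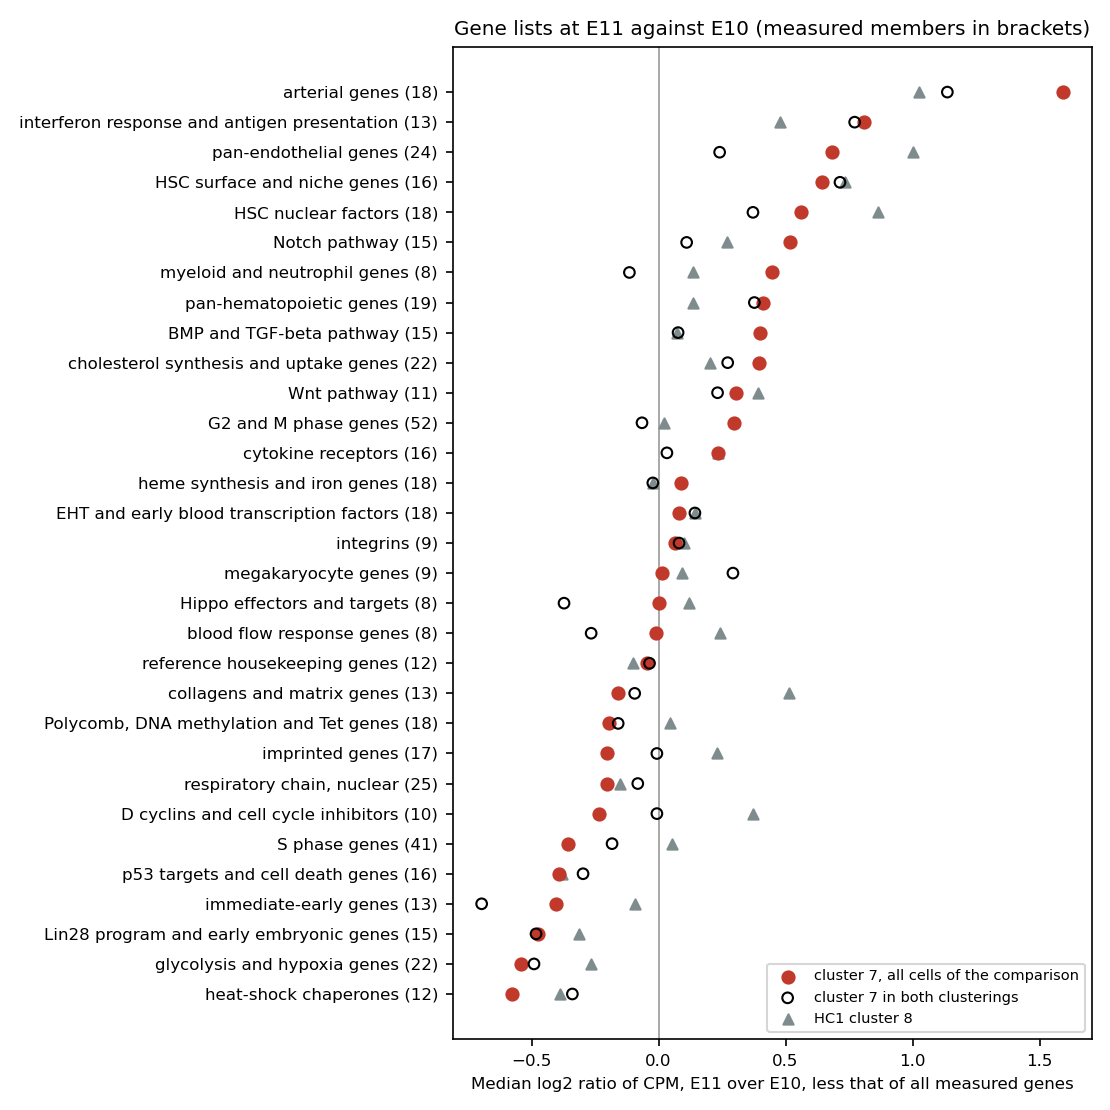
Median log2 ratio of CPM, E11 over E10, of the measured members of each list, less the median of all measured genes (x axis), for lists with at least 8 measured members (number in brackets). Filled circles are all 73 cells, open circles the cells of cluster 7 in both clusterings, and triangles HC1 cluster 8; arterial genes lie at 1.59 and heat-shock chaperones at -0.58 among the filled circles.

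Of the genes behind the sort and the reporter, Gata2 had 289 CPM at E11 and 192 CPM at E10, a ratio of 1.505 (1.473 to 1.538). Its E10 level was 133 CPM in the cells of lower library numbers and 233 CPM in the others, a spread that the interval does not cover. Kit had 788 and 659 CPM, and Pecam1, which encodes CD31, 621 and 432 CPM. In the cells of both clusterings the log2 ratios were 0.40 for Gata2, 0.15 for Kit and 0.16 for Pecam1. Cd27, a TNF-receptor family gene found on early HSCs, had 66.2 CPM at E11 and 21.7 CPM at E10. The clustering used here left out cells sorted as CD27+. Of 18 measured transcription factors of the endothelial-to-hematopoietic switch and early blood, 2 were at least 1.5-fold higher and 0 lower, and the median log2 ratio was 0.08. Runx1, the regulator that starts the switch, had 291 CPM at E11 and 379 CPM at E10. Spi1, the myeloid and HSC factor PU.1, had 404 and 502 CPM, and Myb, needed for definitive blood, 202 and 181 CPM.

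Arterial genes were the list with the highest median. Of 22 listed genes 18 were measured, 16 of these were at least 1.5-fold higher at E11 and 0 lower, and the median log2 ratio was 1.59. In the cells of cluster 7 in both clusterings, 9 of 17 were higher and 0 lower, with a median of 1.14. The following members were highest by ratio or, from Gja4 on, chosen after their values were seen.

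Ltbp4, which encodes a matrix protein that binds latent TGF-beta, ranged over E11 cells from 0 through a median of 0.55 to 211 CPM, and over E10 cells from 0 through 0 to 40.9 CPM. Its summed level was 32.01 CPM (31.0 to 33.1) at E11 and 2.12 CPM (1.77 to 2.53) at E10, a ratio of 15.1 (12.6 to 18.2). The kinase gene Bmx, on the X chromosome, ranged from 0 through 1.79 to 381 CPM at E11 and from 0 through 0 to 33.5 CPM at E10, with 51.4 CPM summed at E11 and 4.52 CPM at E10. For both genes the highest E11 cells lay above every E10 cell, while many cells of either day had no reads. Edn1, the vasoconstrictor endothelin 1, had a median of 0 CPM on both days and highest cells of 682 CPM at E11 and 85.6 CPM at E10, and summed levels of 50.5 and 5.81 CPM. Jag1, a Notch ligand needed for HSC formation in the aorta, had 12.1 CPM at E11 and 1.73 CPM at E10, a ratio of 6.97 (5.69 to 8.62). These 4 genes were each carried by part of the cells: a read was found in 15 to 22 of 46 thinned E11 cells and in 2 to 6 of 27 thinned E10 cells.

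The gap junction genes Gja4 and Gja5 (connexins 37 and 40), markers of arterial endothelium, were also higher at E11. Gja4, on chromosome 4 at 127311421 to 127314039 (GRCm38), ranged from 0 through 6.11 to 1680 CPM at E11 and from 0 through 0.51 to 594 CPM at E10, with 144 CPM summed at E11 and 26.5 CPM at E10. Most of its signal lay in few cells. Gja5 had 189 CPM at E11 and 50.7 CPM at E10. Efnb2, the arterial ephrin ligand, was more evenly spread: its median cell held 29.9 CPM at E11 and 0.47 CPM at E10, and 39 of 46 thinned E11 cells against 6 of 27 thinned E10 cells had a read. Nrp1, a VEGF co-receptor, had a median cell of 184 CPM at E11 and 44.3 CPM at E10.

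The number of arterial genes per cell depended on the other clustering. Thinned to the same depth, E11 cells held reads of a lowest, median and highest number of 4, 11 and 17 of the 18 arterial genes, and E10 cells of 1, 7 and 14. With all reads the medians were 14 and 10. In the cells of cluster 7 in both clusterings, at least 9 of the 18 genes had a read in 32 of 38 E11 cells and 7 of 11 E10 cells, and with all reads in 38 and 10. In the cells that the clustering of all cells put in cluster 8, this was so in 2 of 6 E11 cells and 3 of 16 E10 cells, and with all reads in 4 and 7. The E10 cells with few arterial genes were thus mostly those of cluster 8.

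**Figure D2:**
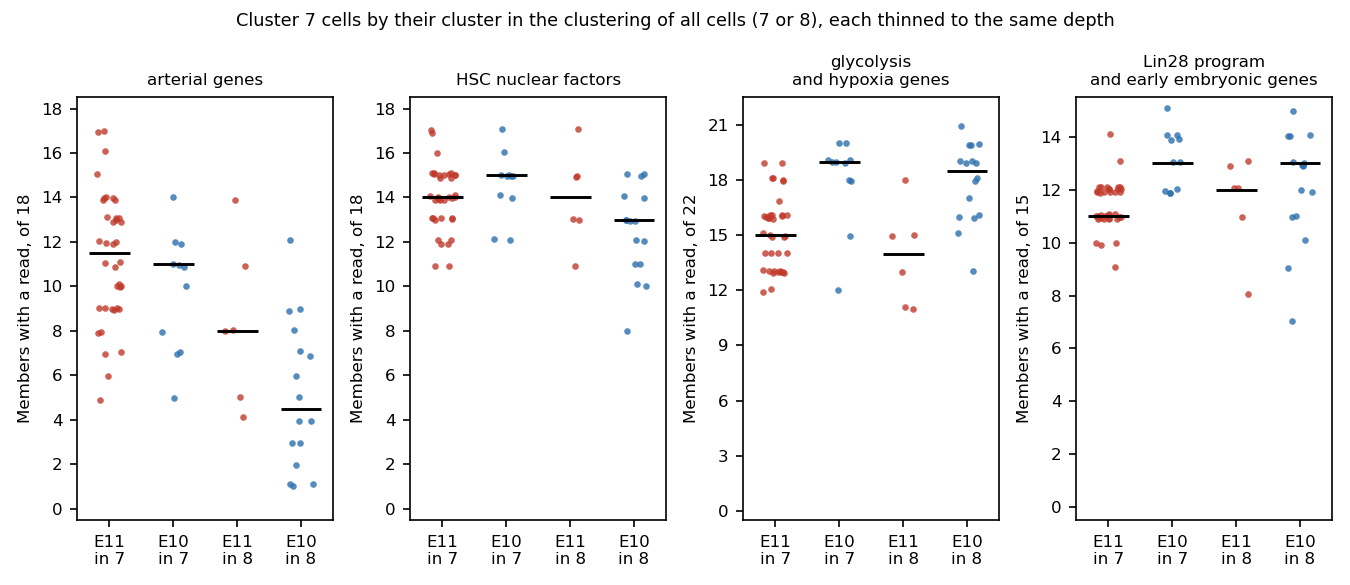
Number of measured list members with a read in a cell thinned to 100000 reads (y axis), for cells of cluster 7 split by day and by cluster 7 or 8 of the clustering of all cells (x axis; 38, 11, 6 and 16 cells from left to right; 2 E11 cells in other clusters are not drawn). Points are cells, slightly displaced, and lines are medians; from left to right 32, 7, 2 and 3 cells reach 9 of the 18 arterial genes, and glycolysis medians are 15, 19, 14 and 18.5.

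Of 15 measured Notch pathway genes, 7 were at least 1.5-fold higher at E11, 1 was lower, and the median log2 ratio was 0.52. Ligands and receptors moved unequally: Dll4 had 95.95 CPM at E11 and 48.3 CPM at E10, Notch4 41.6 and 15.03 CPM, Notch1 77.9 and 53.7 CPM, and the ligand gene Jag2 34.5 and 38.4 CPM. The target gene Hes1 ranged from 0 through 43.1 to 351 CPM at E11 and from 0 through 0.85 to 107 CPM at E10, a ratio of summed levels of 3.39 (3.17 to 3.62). In the cells of cluster 7 in both clusterings the list's median was 0.11, and the log2 ratios of Dll4 and Notch4 were 0.19 and 0.49, while Hes1 stood at 1.26.

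All 24 pan-endothelial genes were measured, 13 were at least 1.5-fold higher at E11 and 0 lower, and the median log2 ratio was 0.68. With cluster 7 in both clusterings, 8 of 24 were higher, 3 lower, and the median was 0.24. Robo4, a guidance receptor that stabilises vessels and marks HSCs, ranged from 0 through 35.9 to 482 CPM at E11 and from 0 through 0 to 65.4 CPM at E10, and its summed levels were 59.5 CPM (58.0 to 60.9) and 6.97 CPM (6.31 to 7.68). Clec14a, a lectin of the vessel wall, had a median cell of 122 CPM at E11 and 4.28 CPM at E10. Its summed levels were 178.5 and 56.5 CPM, and its log2 ratio was 1.27 in the cells of both clusterings. Sox7, one of the SoxF factors of endothelium, had 143 CPM at E11 and 62.3 CPM at E10, but its log2 ratio was 0.17 in the cells of both clusterings. The core endothelial genes Cdh5 (184 and 146 CPM) and Kdr (145 and 125 CPM) differed by less than 1.5-fold, and Plvap, of fenestrated endothelium, had 283 CPM at E11 and 416 CPM at E10.

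The venous list had 5 measured members of 9, with no common direction: 2 were at least 1.5-fold higher and 2 lower. Its median log2 ratio was 0.17. In the cells of both clusterings it was -1.11, with 1 of 4 measured members higher and 2 lower. Lyve1, a hyaluronan receptor of venous, lymphatic and yolk-sac endothelium, ranged from 0 through 0 to 60.3 CPM at E11 and from 0 through 0.36 to 255 CPM at E10, with summed levels of 4.86 and 40.6 CPM. Nrp2, a semaphorin co-receptor of veins and lymphatics, had 1.67 CPM at E11 and 10.6 CPM at E10, and a read in 0 of 46 thinned E11 cells and 10 of 27 thinned E10 cells. With all reads, 28 E11 cells and 20 E10 cells had one. Both were lower at E11 in every setting tried, that is with other scalings, with either day reduced to part of its library numbers, without the highest cell of each day, and in the cells of both clusterings. Of the 2 higher members, Flt4 had 11.4 CPM at E11 and 5.98 CPM at E10, with a log2 ratio of 0.39 in the cells of both clusterings. The other was at least 2-fold higher. Summed over all 9 listed genes, the level was 826 CPM at E11 and 420 CPM at E10. Lyve1, Nrp2 and Flt4 gave a small part of either sum.

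Of the HSC surface and niche genes, 16 of 21 were measured, 8 were at least 1.5-fold higher at E11 and 1 was lower, with a median log2 ratio of 0.64 (0.71 in the cells of both clusterings). Ly6a, which encodes the HSC antigen Sca-1, ranged from 0 through 0 to 262 CPM at E11 and from 0 through 0 to 18.99 CPM at E10. A read of Ly6a was found in 18 of 46 thinned E11 cells, 39.1% (95% Clopper-Pearson interval 25.1 to 54.6), and in 1 of 27 thinned E10 cells, 3.70% (0.09 to 18.97). These intervals cover the drawing of cells only, not a spread between embryos, and are no test between the days. With all reads 19 and 2 cells had one. The summed levels of Ly6a were 23.5 CPM (22.6 to 24.4) and 0.99 CPM (0.75 to 1.28). Ly6a belongs to a family of similar genes, so its reads could be split with relatives.

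Procr, the endothelial protein C receptor used to isolate HSCs (chromosome 2 at 155751117 to 155755471, GRCm38), was detected in every E11 cell: it ranged from 25.7 through 416 to 1417 CPM at E11 and from 0 through 100 to 590 CPM at E10. Its summed levels were 457 CPM (453 to 461) and 125 CPM (122 to 128), a ratio of 3.66 (3.57 to 3.75). Most E11 cells lay above the E10 median, and the ranges overlapped. Vwf, the clotting protein of endothelium and platelet-biased HSCs, had 709 CPM at E11 and 277 CPM at E10. Ptprc, which encodes the pan-leukocyte phosphatase CD45, had 68.8 and 29.9 CPM. The lower member was Itga2b, the early hematopoietic integrin CD41, with 103 CPM at E11 and 172 CPM at E10.

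All 18 HSC nuclear factors were measured, 9 were at least 1.5-fold higher at E11 and 2 lower, and the median log2 ratio was 0.56 (0.37 in the cells of both clusterings, 7 higher and 3 lower of 18). Mllt3, a reader of acetylated histones that sustains HSC self-renewal, ranged from 3.85 through 157 to 590 CPM at E11 and from 0 through 41.3 to 146 CPM at E10. Summed, it had 193 CPM (191 to 196) and 55.4 CPM (53.5 to 57.3), a ratio of 3.49 (3.36 to 3.62). The E11 median lay above the highest E10 cell.

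Mecom, the zinc-finger factor Evi1 needed for HSC formation, had a median cell of 312 CPM at E11 and 99.5 CPM at E10, with several overlapping transcripts in the annotation. Prdm16, its relative, had median cells of 51.6 and 1.54 CPM, and Gata3, expressed around and in emerging HSCs, 22.2 and 0.70 CPM. Their summed levels differed less, at 62.9 and 21.9 CPM for Prdm16 and 42.6 and 14.25 CPM for Gata3. In the cells of both clusterings their log2 ratios were 0.73 and 0.75. Hlf, a factor that marks HSC precursors, had 78.3 CPM at E11 and 51.8 CPM at E10. The 2 lower members were not HSC-restricted: the stress-responsive genes Egr1 (85.9 and 149 CPM) and Zfp36 (38.2 and 67.1 CPM), which also belong to the immediate-early list described below.

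**Figure D3:**
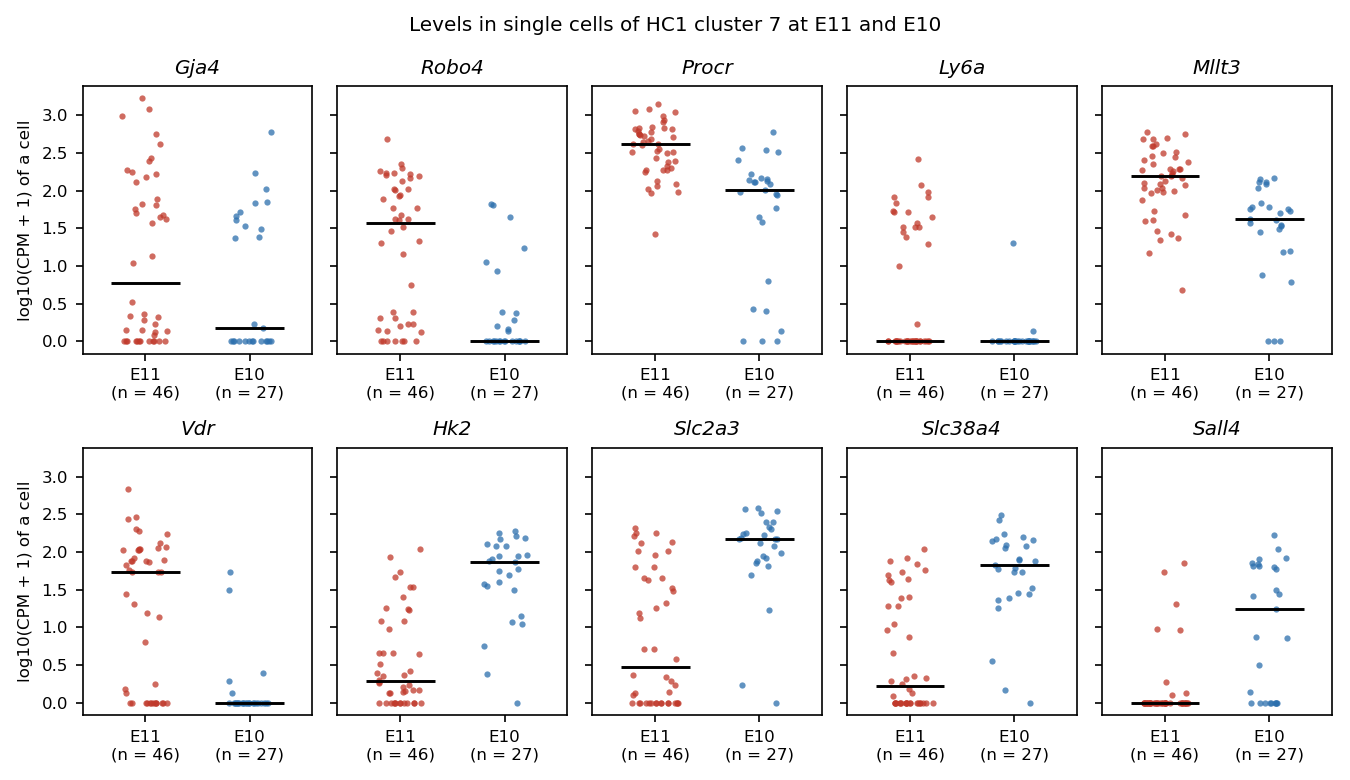
Level of 10 genes in single cells of HC1 cluster 7, as log10(CPM + 1) (y axis), at E11 (46 cells, red) and E10 (27 cells, blue); points are cells and lines are medians. The E11 median of Mllt3 (157 CPM) exceeds the highest E10 cell (146 CPM), and the medians of Hk2, Slc2a3, Slc38a4 and Sall4 are lower at E11.

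Of 19 measured pan-hematopoietic genes, 6 were at least 1.5-fold higher and 3 lower, with a median log2 ratio of 0.41 (0.38 in the cells of both clusterings, 8 higher and 2 lower of 18). The members with the largest ratios went both ways. Plek, pleckstrin, a kinase substrate of platelets and leukocytes, ranged from 0 through 0.11 to 219 CPM at E11 and from 0 through 32.1 to 579 CPM at E10, with summed levels of 11.7 and 103 CPM. Tyrobp, an adaptor of myeloid receptors, had 24.3 CPM at E11 and 8.09 CPM at E10, while Fcer1g, a similar adaptor, had 8.18 and 30.7 CPM and Ptpn7, a lymphoid phosphatase, 33.3 and 92.3 CPM. The log2 ratio of Fcer1g was only -0.31 in the cells of both clusterings.

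The megakaryocyte list likewise split, with 4 of 9 measured members at least 1.5-fold higher and 3 lower. The von Willebrand receptor subunits Gp1ba (21.5 CPM at E11 and 6.13 CPM at E10) and Gp9 (55.9 and 19.7 CPM) were higher. Itgb3, the integrin that pairs with CD41, ranged from 0.52 through 162 to 744 CPM at E11 and from 21.5 through 427 to 844 CPM at E10, a ratio of summed levels of 0.453 (0.445 to 0.461). Of 8 measured myeloid genes, 4 were higher and 2 lower. Lyz2, lysozyme, which may share reads with Lyz1, had 519 CPM at E11 and 265 CPM at E10, whereas Csf2rb, the shared receptor chain of IL-3 and GM-CSF, had 5.81 and 16.0 CPM and Fcgr3 14.2 and 37.6 CPM.

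Of 24 erythroid genes 4 were measured, and 1 was higher: Car2, carbonic anhydrase 2, found in red cells and in HSCs, ranged from 0 through 179 to 1279 CPM at E11 and from 0 through 30.6 to 214 CPM at E10, a ratio of 5.54 (5.34 to 5.75). No member of the macrophage (16 genes), mast cell (12) or germ cell (10) lists was measured. Of 6 measured lymphoid genes, 2 were higher and 0 lower, among them the cytokine gene Ltb with 13.4 CPM at E11 and 5.29 CPM at E10. Among 16 measured cytokine receptors, 4 were higher and 2 lower.

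Interferon signalling acts on emerging HSCs, and its factors Stat2 and Irf9 take part in binding the interferon-stimulated response element (ISRE) of target promoters. Of 26 listed interferon and antigen presentation genes 13 were measured, 7 were at least 1.5-fold higher at E11 and 0 lower, and the median log2 ratio was 0.81 (0.59 with the limit on the mean of both days, 0.77 in the cells of both clusterings). The ISRE letters, searched as GAAA, 2 bases of any kind and GAAA again (TTTC, 2 bases and TTTC on the other strand), occurred in RefSeq promoter windows (GRCm38.p6, 250 bases before to 50 after the start) of 6 of the 11 measured members that had a window. They occurred in 1131 of the 32851 windows of all genes (3.44%), and in 257 (3.4%) of the measured genes with a window. Shown are 2 members that were higher at E11 (Oas1a and Stat2) and 1 that was about level (Ifitm3), 5′ to 3′, with the matched letters in capitals, including overlapping matches. The windows are chr5:120907476-120907775 on the minus strand, chr10:128270248-128270547 on the plus strand and chr7:141010695-141010994 on the minus strand.
Oas1a: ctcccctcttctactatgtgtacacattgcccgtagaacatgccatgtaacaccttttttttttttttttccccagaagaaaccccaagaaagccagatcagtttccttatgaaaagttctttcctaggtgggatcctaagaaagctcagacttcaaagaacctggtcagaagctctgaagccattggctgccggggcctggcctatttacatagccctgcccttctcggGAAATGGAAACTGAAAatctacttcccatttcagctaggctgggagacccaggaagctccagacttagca
Stat2: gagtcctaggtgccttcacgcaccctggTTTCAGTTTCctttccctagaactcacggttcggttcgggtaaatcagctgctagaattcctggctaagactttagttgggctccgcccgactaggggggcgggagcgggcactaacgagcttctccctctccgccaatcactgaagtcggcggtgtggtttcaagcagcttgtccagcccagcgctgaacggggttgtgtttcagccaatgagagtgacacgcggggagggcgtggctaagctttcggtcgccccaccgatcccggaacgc
Ifitm3: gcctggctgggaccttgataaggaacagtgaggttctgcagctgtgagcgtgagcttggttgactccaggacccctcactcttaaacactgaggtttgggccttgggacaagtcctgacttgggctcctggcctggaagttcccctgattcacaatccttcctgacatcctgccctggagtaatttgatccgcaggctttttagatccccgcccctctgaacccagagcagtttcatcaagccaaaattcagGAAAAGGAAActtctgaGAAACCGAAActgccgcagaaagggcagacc
A match describes these letters only and was not tied to binding of any factor.

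Oas1a, an antiviral synthetase with close relatives that can share its reads, ranged from 0 through 0.18 to 165 CPM at E11 and from 0 through 0 to 17.0 CPM at E10, with 15.9 CPM summed at E11 and 1.80 CPM at E10. Ifit2, an antiviral RNA-binding protein with no ISRE letters in its windows, had 17.2 and 2.77 CPM. The signalling genes Stat2 (38.2 CPM at E11 and 13.7 CPM at E10) and Irf9 (34.8 and 13.1 CPM) were both higher. Ifitm3, a membrane protein that blocks viral entry and marks early embryonic cells, had 161 CPM at E11 and 146 CPM at E10, and B2m, the light chain of class I molecules, 289 and 251 CPM. Of the 6 members with a match, Oas1a and Stat2 were at least 1.5-fold higher and Ifitm2, Ifitm3, Bst2 and B2m were not. Of the members with a window but no match, Ifit2, Irf9 and Tapbp were at least 1.5-fold higher and H2-D1 and H2-K1 were not. Whether letters and difference go together was not tested.

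Of 25 listed genes of glycolysis and hypoxia, 22 were measured, 9 were at least 1.5-fold lower at E11 and 1 higher, and the median log2 ratio was -0.54 (-0.49 in the cells of both clusterings, 9 lower and 2 higher). The range of the median over all settings tried was -0.71 to -0.47. Hk2, the inducible hexokinase that starts glycolysis (chromosome 6 at 82725025 to 82774454, GRCm38), ranged from 0 through 0.96 to 109 CPM at E11 and from 0 through 72.8 to 187 CPM at E10; summed, it had 12.0 CPM (11.3 to 12.6) and 78.3 CPM (76.1 to 80.6). The high-affinity glucose transporter gene Slc2a3 ranged from 0 through 2.10 to 208 CPM at E11 and from 0 through 148 to 380 CPM at E10, a ratio of 0.213 (0.205 to 0.221). The E10 medians of both genes stood far above the E11 medians, and the cells overlapped.

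Slc16a3, the transporter that exports lactate, had 4.84 CPM at E11 and 33.99 CPM at E10. Ldha, which makes lactate from pyruvate, had a read in every thinned cell of both days and was lower in level: it ranged from 441 through 1316 to 2403 CPM at E11 and from 1100 through 2119 to 3439 CPM at E10. Reads of Ldha, and of other glycolytic genes such as Eno1 (182 and 359 CPM), could be split with their many processed pseudogenes. The higher member was Car9, a carbonic anhydrase induced by low oxygen, with 18.9 CPM at E11 and 6.68 CPM at E10. Thinned cells held reads of 11, 15 and 19 (lowest, median, highest) of the 22 genes at E11 and of 12, 19 and 21 at E10, with all reads medians of 19 and 20, and the thinned medians were 15 and 19 in the cells of both clusterings. Of 25 nuclear genes of the respiratory chain, 0 were higher and 1 was lower, with a median of -0.20.

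The Lin28 program keeps fetal cells in an early developmental state. Of 25 listed genes 15 were measured, 6 were at least 1.5-fold lower and 1 higher, and the median log2 ratio was -0.47 (-0.48 in the cells of both clusterings, 7 lower and 0 higher of 15). Lin28b, the RNA-binding protein that blocks let-7 maturation, ranged from 0 through 30.2 to 127 CPM at E11 and from 0 through 73.7 to 226 CPM at E10, with summed levels of 35.8 and 87.6 CPM. Trim71, a let-7 target expressed in embryonic cells, had 5.55 CPM at E11 and 26.5 CPM at E10.

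Sall4, a zinc-finger factor of embryonic stem and germ cells, ranged from 0 through 0 to 71.1 CPM at E11 and from 0 through 16.4 to 166 CPM at E10, and a read was found in 5 of 46 thinned E11 cells and 15 of 27 thinned E10 cells. Its ratio was 0.127 (0.115 to 0.140). The nuclear receptor gene Nr6a1, active in early embryos, had 4.58 and 14.7 CPM. Hmga2, a let-7 target linked to fetal HSC self-renewal, went the other way by less than 1.5-fold, at 302 CPM in E11 cells and 256 CPM in E10 cells.

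Of 17 measured imprinted genes, expressed from 1 parental allele, 8 were at least 1.5-fold lower at E11 and 2 higher, with a median log2 ratio of -0.20 (-0.01 in the cells of both clusterings, 5 lower and 2 higher of 15). Dlk1, a Notch-like ligand of fetal tissue, ranged from 0 through 0 to 20.5 CPM at E11 and from 0 through 2.04 to 58.5 CPM at E10. The amino acid transporter Slc38a4 ranged from 0 through 0.68 to 109 CPM at E11 and from 0 through 66.5 to 311 CPM at E10, a ratio of 0.198 (0.188 to 0.209). Peg3, a zinc-finger gene, had 38.3 CPM at E11 and 86.0 CPM at E10. H19, a noncoding RNA, was higher, with 1429 CPM at E11 and 760 CPM at E10, and its neighbour Igf2, a fetal growth factor, had 1446 and 981 CPM, a ratio of 1.47.

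Cell cycle lists differed in small steps over many genes. Of 52 G2 and M phase genes, all measured, 14 were at least 1.5-fold higher at E11 and 0 lower, with a median log2 ratio of 0.30. Psrc1, a spindle protein, had 117 CPM at E11 and 44.8 CPM at E10, and the centromere protein gene Cenpf 180 and 86.0 CPM. In the cells of cluster 7 in both clusterings 1 of 52 was higher, 2 were lower and the median was -0.07, so the list was about level with all genes. The median was 0.12 with the first E11 library block and 0.48 with the second. Reads of at least 26 of the 52 genes were found in 31 of 46 thinned E11 cells and 26 of 27 thinned E10 cells, and with all reads in every cell. Of 41 S phase genes, all measured, 0 were higher and 6 lower, with a median of -0.36 (-0.18 in the cells of both clusterings). The replication licensing factor Cdc6 had 41.9 CPM at E11 and 76.1 CPM at E10, and Pcna, the polymerase clamp, 89.9 and 146 CPM.

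Stress and death genes were lower in part. Of 12 measured heat-shock chaperones, 6 were at least 1.5-fold lower at E11 and 0 higher, with a median log2 ratio of -0.58 (-0.38 with the limit on the mean of both days, -0.34 in the cells of both clusterings). Hsp90aa1 ranged from 122 through 257 to 460 CPM at E11 and from 182 through 394 to 1853 CPM at E10. Hspa1a, whose twin Hspa1b is nearly identical, had 10.2 CPM at E11 and 61.7 CPM at E10, with median cells of 0 and 0.43 CPM and a read in 7 of 46 and 6 of 27 thinned cells. It stood at 16.2 and 1.62 CPM in the first and second E11 library blocks and at 15.8 and 93.3 CPM in the E10 cells of lower and upper library numbers. Of 13 immediate-early genes, which respond within minutes to stimulation and to tissue dissociation, 5 were lower and 1 higher, with a median of -0.40 (-0.70 in the cells of both clusterings, 9 lower and 1 higher of 14). The E11 library blocks differed: the list's median was -0.16 with the first (3 lower of 13) and -1.58 with the second (10 lower of 13). Fos had 29.5 CPM at E11, 47.1 in the first block and 4.32 in the second, and 80.3 CPM at E10. Jun had 220 CPM at E11 and 394 CPM at E10, of which the E10 cells of lower library numbers had 232 CPM and the others 506 CPM. The enzyme digestion of the tissue was described alike for both days, and its part in these values was not tested.

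Of 16 measured p53 targets and cell death genes, 4 were lower and 1 higher, with a median of -0.39 (-0.15 with the limit on the mean of both days). Pmaip1, the death protein Noxa, had 0.85 CPM at E11 and 17.6 CPM at E10, but its log2 ratio was -0.18 in the cells of both clusterings. Bcl2, which blocks cell death, had 7.42 CPM at E11 and 21.6 CPM at E10. The death receptor gene Fas had 25.4 CPM at E11 and 8.12 CPM at E10, of which the E10 cells of lower library numbers had 18.1 CPM and the others 1.22 CPM.

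Of 22 measured genes of cholesterol synthesis and uptake, 6 were at least 1.5-fold higher at E11 and 0 lower, with a median log2 ratio of 0.40. In the cells of both clusterings 6 were higher and 1 lower, with a median of 0.27. The median was 0.44 with the first E11 library block and 0.17 with the second. Cyp51, a demethylase of sterol synthesis, had 152 CPM at E11 and 61.1 CPM at E10, and Mvk, mevalonate kinase, 36.6 and 16.8 CPM. Of 15 BMP and TGF-beta genes, 4 were higher and 1 lower, with a median of 0.40 that was 0.08 in the cells of both clusterings. The inhibitor gene Smad6 had 19.6 CPM at E11 and 9.03 CPM at E10, and Id2, a target, 31.3 and 14.9 CPM. Of 11 Wnt genes 4 were higher and 1 lower; of 8 Hippo genes and of 8 blood flow genes, 1 and 2 were higher and as many lower. Among 13 matrix genes 3 were higher and 2 lower: Col5a2, a fibrillar collagen, had 108 CPM at E11 and 20.3 CPM at E10, and Nid1, nidogen of basement membrane, 26.8 and 103 CPM. Housekeeping genes had a median of -0.05, with 1 of 12 lower and 0 higher.

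Single genes with the largest ratios were taken by a rule of size and of the same direction in every setting. A gene could pass the 10 CPM limit through its higher day alone, so the largest ratios follow in part from that limit. Set on the mean of both days, the limit would drop many of them. Examples are Veph1 (10.8 CPM at E11 and 0.17 CPM at E10) and Pde11a (0.20 and 12.4 CPM). All settings drew on the same cells, so the same direction in each is no separate support. Several of the 15 with the highest ratio were hardly seen at E10. Tbxas1, thromboxane synthase, had 22.3 CPM at E11 and 0 reads at E10, at least 433-fold higher against a floor of 3 reads over the E10 cells. Crispld2, a secreted protein, likewise had 18.6 CPM at E11 and 0 reads at E10, at least 362-fold higher. Evpl, envoplakin of cell junctions, had 15.8 CPM at E11 and 1 read at E10, a ratio of 922 (165 to 36450), and Slc40a1, the iron exporter ferroportin, 14.6 CPM at E11 and 1 read at E10, a ratio of 849 (152 to 33570). A read of these 4 genes was found in 11 to 17 of 46 thinned E11 cells.

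Foxc2, a forkhead factor of arterial and lymphatic endothelium, had 18.6 CPM at E11 and 0.07 CPM at E10. Vdr, the vitamin D receptor, on chromosome 15 at 97854425 to 97910630 (GRCm38), was the most widely expressed of them: it ranged from 0 through 52.8 to 680 CPM at E11 and from 0 through 0 to 52.9 CPM at E10, with 81.3 CPM (79.6 to 83.0) and 3.24 CPM (2.79 to 3.73) summed. A read was found in 28 of 46 thinned E11 cells and 2 of 27 thinned E10 cells, and with all reads in 33 and 5. Akr1c14, a hydroxysteroid dehydrogenase, had 85.4 CPM at E11 and 3.99 CPM at E10, and the Wnt inhibitor gene Dkk1 15.1 and 0.62 CPM. The others were Scrn1 (27.8 and 0.22 CPM), Zfp618, Veph1, Sema6a, Rdh12, Lpin1 and Ly6a, at ratios of 23.7 to 125.

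Of the 15 with the lowest ratio, Ak4, a mitochondrial adenylate kinase induced by hypoxia, had 0.14 CPM at E11 and 21.5 CPM at E10. Bcat1, which starts the breakdown of branched-chain amino acids and is expressed in embryonic cells, ranged from 0 through 0 to 86.8 CPM at E11 and from 0 through 13.2 to 276 CPM at E10, with a read in 2 of 46 thinned E11 cells and 18 of 27 thinned E10 cells. Ccdc80, a matrix protein, had 21.7 CPM at E11 and 174 CPM at E10, and Tuba8, an alpha-tubulin, 4.65 and 68.4 CPM. The others were Pde11a, Ubash3a, Dlk1, Perp, Brinp1, Crmp1, Tnfsf9, Plek, Lyve1, Plekhh1 and Prune2, between 8.13 and 62.4 times lower at E11. Other annotated genes overlap many of the genes named, among them Tbxas1, Crispld2, Foxc2, Scrn1, Veph1, Crmp1, Plek, Bcat1, Pde11a, Tuba8, Tnfsf9, Plekhh1, Prune2, Nrp2, Gata3, Mecom, Prdm16, Dll4, Notch1, Notch4, Irf9, Cd27, Itga2b, Hk2, Slc2a3, Sall4, Trim71, Nr6a1, Cyp51, Cenpf, Jun and Fas, so reads of these could be shared.

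**Figure D4:**
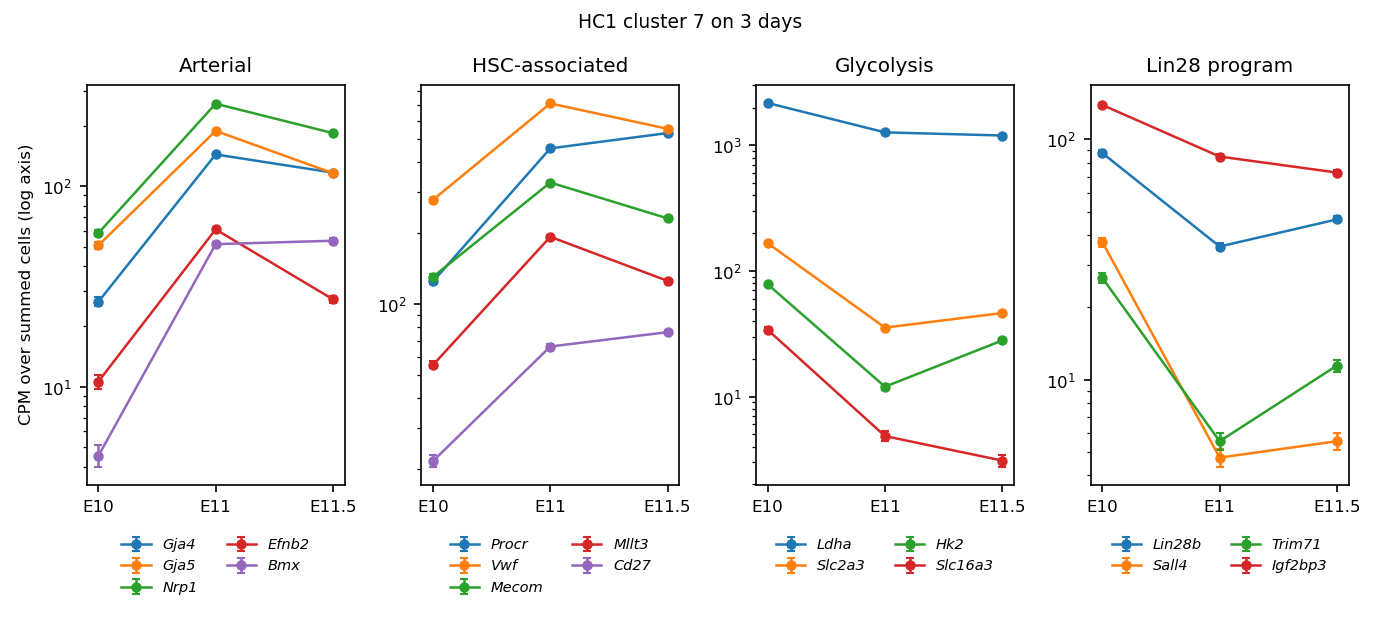
CPM over summed cells (log axis) of HC1 cluster 7 at E10 (27 cells), E11 (46 cells) and E11.5 (63 cells) for arterial, HSC-associated, glycolytic and Lin28 program genes. Bars are exact Poisson 95% intervals and are mostly smaller than the points; Procr goes through 125, 457 and 531 CPM and Hk2 through 78.3, 12.0 and 28.0 CPM.

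The 63 G2VInt cells of cluster 7 at E11.5 show where these genes stood later. That comparison shares the E11 cells with the one above, and so its values are only set beside it. Of 9959 genes measured at E11.5 or E11, 113 (1.13%) were at least 2-fold higher and 216 (2.17%) at least 2-fold lower at E11.5 than at E11. Procr went through 125, 457 and 531 CPM at E10, E11 and E11.5, Cd27 through 21.7, 66.2 and 76.2 CPM, and Car2 through 52.7, 292 and 325 CPM. Mllt3 went through 55.4, 193 and 126 CPM, and Efnb2 through 10.6, 60.9 and 27.3 CPM. Hk2 stood at 78.3, 12.0 and 28.0 CPM, Sall4 at 37.4, 4.75 and 5.55 CPM, and Ldha at 2176, 1270 and 1199 CPM. Relative to all genes, the median log2 ratio of E11.5 over E11 was -0.36 for arterial genes, 0.00 for HSC surface genes, 0.21 for glycolysis, 0.00 for the Lin28 program and -0.50 for G2 and M phase genes, of which 24 of 52 were at least 1.5-fold lower at E11.5; of all genes, 4.17% were at least 1.5-fold higher and 9.42% lower.

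HC1 cluster 8, with 31 cells at E11 and 36 at E10, allowed the same comparison in other cells of the same gate and days. Reads of Y-linked genes were found there in 20 E11 cells and 11 E10 cells, and Xist reads in 8 and 25. The days thus differed in sex and in library numbers here too, so the comparison is no independent check of day. In cluster 8, 546 of 9827 genes (5.56%) were at least 2-fold higher and 208 (2.12%) lower at E11. Of the genes at least 2-fold higher in cluster 7, 193 were so in cluster 8, which is 25.1% of the first and 35.3% of the second list; of the lower genes 41 were shared, 16.5% and 19.7%. At 1.5-fold, 13.6% of genes were higher and 6.72% lower. The list medians in cluster 8 were 1.02 for arterial genes (12 measured), 1.00 for pan-endothelial genes, 0.86 for HSC nuclear factors, 0.48 for interferon genes, -0.31 for the Lin28 program and -0.26 for glycolysis. Procr had 250 CPM at E11 and 30.9 CPM at E10 in cluster 8, Robo4 55.8 and 3.69 CPM, and Sall4 1.63 and 32.9 CPM. Hk2, with 60.5 CPM at E11 and 71.2 CPM at E10 in cluster 8, differed there by less than 1.5-fold. With 1 sample a day, no difference between the clusters was tested.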

How the data were processed

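Single-cell RNA sequencing was made from sorted cells with Nextera XT libraries on an Illumina HiSeq, per the labels' protocols. The deposited table holds whole-number read counts per Ensembl gene for 1087 cells. HTSeq 0.6.0 and the GRCm38 genome are named in the submitters' processing notes; the aligner, annotation release and strand setting are not given in the sources used here, so reads of overlapping antisense genes cannot be told apart. No molecular identifiers are mentioned. Symbols were taken from GENCODE for 45229 of 46078 genes, and genes without a match held 0.0981% of the counts. Of the 1087 columns, 232 were used and 855 were not. No entry named something other than a gene and no cells had identical counts (0 pairs).

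Reads were summed per day and scaled to CPM (Python 3.11.15, numpy 2.4.6, pandas 2.3.3, scipy 1.17.1). A zero was replaced by 3 reads in a ratio. Thinning to 100000 reads used seed 1, and every cell reached that depth. TMM factors came from edgeR 4.0.16 in R 4.3.3, used for scaling only. The functions were tested on simulated data. The labels give no replicates, so no test was run.

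The 42 gene lists and their members were chosen with earlier results of these data known. Genes were named by rule: the 15 highest and 15 lowest ratios among measured genes at least 2-fold apart and at least 1.5-fold the same way in the mean of per-cell CPM, after TMM scaling, after thinning, with E11 reduced to either block of 96 library numbers or E10 to its lower or upper 48, without the highest cell of each day, and in cluster 7 of both clusterings. Pseudogenes, unnamed, mitochondrial, ribosomal protein and 6 sex-linked genes were passed over. The rule also took Gata2, Kit, Pecam1, Cd27 and the 2 to 4 members of a list with the largest ratio. Other genes named were chosen after their values were seen.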

Additional observations from a re-analysis of the deposited data

Results flagged for a closer look

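Bcl2, which encodes a blocker of cell death, went in opposite directions in the HC1 clusters. In cluster 7 it had 7.42 CPM at E11 and 21.6 CPM at E10, a log2 ratio of -1.54, and in cluster 8 it had 26.6 CPM at E11 and 11.4 CPM at E10, a log2 ratio of 1.217. Other annotated genes on both strands overlap it, and the difference between the clusters was not tested.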

How the results depend on the processing

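Each day was 1 sample, so none of these settings is a replicate check. No paired analysis was possible because the labels give each cell its own library number and no number is shared between days. The count of genes at least 2-fold higher at E11 (769) was 1354 with the E10 cells of lower library numbers, 435 with a limit of 25 CPM and 4396 with no limit. The count of genes at least 2-fold lower at E11 (248) was 549 with the second E11 library block, 434 with the E10 cells of lower library numbers, 393 with cluster 7 in both clusterings, 122 with a limit of 25 CPM and 2683 with no limit. The limits change the number of genes compared; for the other settings the cause was not tested. Of 35 lists with at least 5 measured members, 13 had a median over 0.25 above that of all genes, and 6 had one over 0.25 below. With cluster 7 in both clusterings 8 lists lay above, and with no limit 11 lay below. These 2 counts are of lists with at least 5 members measured in that setting. The 8 lists are not all among the 13. Megakaryocyte genes (0.29) and smooth muscle and mesenchymal genes (0.27) were at 0.01 and -0.11 in all cells. Of the 13, pan-endothelial (0.24), Wnt (0.23), Notch (0.11) and BMP and TGF-beta genes (0.08) no longer lay above. With cluster 7 in both clusterings the medians were -0.1147 for myeloid and neutrophil genes, -0.0307 for lymphoid genes and -0.06514 for G2 and M phase genes. These 3 lists were thus about level with all genes in that setting. With the E10 cells of lower library numbers the values turned to 0.01406 (log2 ratio: Tnfrsf1b) and 2.516 (log2 ratio: Cdkn1a), against -1.08 and -1.06 in all cells. Over the settings of the rule for named genes, 593 higher and 166 lower genes kept at least 1.5-fold the same way. The alternatives without cells under 500000 reads and with 10 CPM on the mean of both days were chosen after seeing the data; they gave 772 and 601 higher genes, and 248 and 187 lower. The E10 group had 27 cells, 1 of them with 124620 reads, which limits what can be seen of weakly expressed genes.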
